A study of Mus musculus with 6 samples.

Results

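Heat shock proteins are chaperones that hold, fold and refold other proteins. When unfolded protein accumulates, the transcription factor HSF1 forms trimers, binds heat shock elements in promoters and raises transcription of chaperone genes, while the chaperones themselves hold HSF1 back in unstressed cells. In the cytosol HSP70 works with J-domain partners and nucleotide exchange factors and hands clients to HSP90, and in mitochondria HSP60 and its HSP10 lid enclose imported proteins while they fold. The genes described here are 10 HSF1-dependent chaperone genes: the stress-inducible HSP70 genes Hspa1a and Hspa1b, the constitutive HSP70 gene Hspa8, the HSP70 partners Hsph1 and Dnajb1, the cytosolic HSP90 genes Hsp90aa1 and Hsp90ab1, the small heat shock protein gene Hspb1, and the mitochondrial pair Hspd1 and Hspe1. They were chosen by symbol and not by a cutoff on their values, though with earlier results of these data known. The Ensembl identifiers of the table were matched to protein-coding genes, and all 10 were found among the 55335 genes listed.

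The libraries were poly(A)-selected RNA-seq of mouse embryonic fibroblasts (MEFs), labelled as a wild-type fibroblast line, and the question was which transcripts differ in cells that have migrated through a narrow constriction. The Ctrl group was parental MEFs (3 libraries). The Confine group was MEFs of the same line, seeded on the upper face of a transwell membrane with 3 μm pores and collected after 15 h once they had passed to the other side (3 libraries). Both groups were labelled wild type, and the labels give 1 serum-supplemented culture medium with antibiotics for all libraries. The count columns of Confine replicates 1 and 2 held the same value in all 55335 genes, and they therefore entered as 1 library, called the repeated Confine library here, and the Confine group had n = 2.

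Several limits apply to the groups. Pore passage, the hours spent on a membrane and the choice of the cells that crossed all went with the group and cannot be told apart. The transwell protocol that the study gives for its other migration assays places cells in serum-free medium above complete medium. Whether the RNA-seq cells were seeded in that way is not given in the sources used here, and any difference in serum cannot be told apart from the group either. The MEF line came from another laboratory, and how it was derived is not given in the sources used here. The labels do not say that replicates were separate cultures, so p-values measure only the spread between these libraries, which may be technical. In bulk RNA, fewer cells with a transcript and less of that transcript per cell cannot be told apart. Total counts ranged from 22287210 to 32537550, and 15881 genes had enough counts to be tested. Of the fibroblast markers, Col1a1, Col1a2, Vim and Fn1 were abundant in every library, and the 10 markers summed to 8728 to 9586 counts-per-million (CPM) in Ctrl and 15717 to 16495 CPM in Confine, with 5 higher in Confine by the test below. Of the defining fibroblast markers, Thy1 and Lum never exceeded 2 counts and Dcn never exceeded 27. The leukocyte markers summed to 6.89 to 7.71 CPM in Ctrl and 17.2 to 24.1 CPM in Confine. Cd68 was higher and Lyz2 was lower in Confine by the same test, Ptprc and Itgam had at most 2 counts, and Adgre1 and Cd3e had 0 counts in every library. Endothelial and epithelial markers summed to at most 0.718 and 0.378 CPM, and neural markers to 18.2 to 23.7 CPM in Ctrl and 12.1 to 12.5 CPM in Confine. The part of these marker differences in the results below was not tested.

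The promoters are shown first, because HSF1 acts through them. The heat shock element consists of alternating units of GAA and its reverse complement TTC with any 2 bases between neighbouring units. RefSeq promoter windows (GRCm38.p6, 250 bases before to 50 bases from each annotated start) matched 7 of the 10 genes by symbol and gave 10 windows, since Hspd1, Hsph1 and Dnajb1 had 2 starts each. Hspa8, Hsp90aa1 and Hsp90ab1 had no entry. Each window was searched for 2 units (GAANNTTC or TTCNNGAA, each its own reverse complement, overlapping matches allowed) and for 3 units (GAANNTTCNNGAA or TTCNNGAANNTTC, which are each other's reverse complement). Over all 32851 windows of that length, 7.86% held GAANNTTC, 8.52% held TTCNNGAA, 15.1% held at least 1 of them and 0.603% held 3 units. The windows of 6 genes, which show the range from 4 alternating units to no match, follow, written 5′ to 3′ on the strand of the gene with every matched base in capitals.
Hspe1 (chr1:55087898-55088197, plus strand): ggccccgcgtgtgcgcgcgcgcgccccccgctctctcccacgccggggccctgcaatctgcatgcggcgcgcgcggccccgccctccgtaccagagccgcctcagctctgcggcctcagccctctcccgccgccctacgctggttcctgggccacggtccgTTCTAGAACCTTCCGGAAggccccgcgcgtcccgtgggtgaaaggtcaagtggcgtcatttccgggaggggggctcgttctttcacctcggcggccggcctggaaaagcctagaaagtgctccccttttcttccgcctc
Hsph1, first start (chr5:149636287-149636586, minus strand): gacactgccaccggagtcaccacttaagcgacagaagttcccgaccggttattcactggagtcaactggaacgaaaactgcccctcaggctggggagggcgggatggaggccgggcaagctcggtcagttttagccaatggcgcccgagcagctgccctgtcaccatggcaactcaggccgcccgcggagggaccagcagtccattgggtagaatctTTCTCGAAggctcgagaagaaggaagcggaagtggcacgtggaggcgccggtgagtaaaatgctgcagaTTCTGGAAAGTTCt
Hspb1 (chr5:135887669-135887968, plus strand): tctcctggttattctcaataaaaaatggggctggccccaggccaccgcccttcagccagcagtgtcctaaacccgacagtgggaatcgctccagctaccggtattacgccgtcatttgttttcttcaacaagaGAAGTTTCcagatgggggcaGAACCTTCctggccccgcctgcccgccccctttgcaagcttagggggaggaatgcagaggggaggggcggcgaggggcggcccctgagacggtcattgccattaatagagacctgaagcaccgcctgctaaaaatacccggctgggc
Hspa1b (chr17:34959189-34959488, minus strand): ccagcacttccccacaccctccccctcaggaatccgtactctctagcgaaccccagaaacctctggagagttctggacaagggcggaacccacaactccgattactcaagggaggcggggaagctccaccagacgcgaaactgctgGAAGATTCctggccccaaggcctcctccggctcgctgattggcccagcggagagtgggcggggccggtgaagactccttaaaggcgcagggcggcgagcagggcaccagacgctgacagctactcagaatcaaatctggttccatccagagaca
Hspa1a (chr17:34972107-34972406, minus strand): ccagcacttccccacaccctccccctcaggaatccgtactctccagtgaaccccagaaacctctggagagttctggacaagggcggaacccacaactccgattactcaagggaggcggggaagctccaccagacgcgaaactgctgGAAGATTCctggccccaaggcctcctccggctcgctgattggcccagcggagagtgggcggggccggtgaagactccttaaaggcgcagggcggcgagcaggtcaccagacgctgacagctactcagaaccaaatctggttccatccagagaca
Dnajb1, first start (chr8:83607925-83608224, plus strand): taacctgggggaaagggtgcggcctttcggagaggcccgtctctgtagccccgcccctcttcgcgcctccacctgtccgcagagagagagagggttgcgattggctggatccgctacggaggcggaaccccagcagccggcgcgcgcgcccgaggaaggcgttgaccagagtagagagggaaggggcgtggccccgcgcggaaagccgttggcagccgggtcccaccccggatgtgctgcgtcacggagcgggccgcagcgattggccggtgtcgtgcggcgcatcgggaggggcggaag

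In these letters 6 of the 7 genes held at least 1 match of 2 units, and 3 genes (Hspd1, Hspe1 and Hsph1) held a match of 3 units. These counts are per gene, with up to 2 windows each, while the shares over all windows are per window. Some of the windows also share sequence, as given below. The capitals of Hspe1 were a run of 18 bases, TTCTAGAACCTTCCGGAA, at chr1:55088059-55088076, made of 4 alternating units and so holding 2 overlapping matches of 3. That run lay 89 to 72 bases before the Hspe1 start and, read on the other strand, 144 to 127 bases before the second Hspd1 start, where it also fell in an annotated Hspd1 exon. The Hspd1 and Hspe1 records stand head to head and overlap by 112 bases, so a single run of letters sat in a promoter window of both genes. Hsph1 held 2 units 33 to 26 bases before its first start and 3 units at positions 37 to 49 after it. Hspb1 held 2 separate matches of 2 units, 117 to 110 and 97 to 90 bases before the start. Hspa1a and Hspa1b each held 1 match, GAAGATTC, 104 to 97 bases before the start, and their windows had the same base at 296 of 300 positions (98.7%). Neither window of Dnajb1, nor the window of the first Hspd1 start, held a match of these letters. A match is a description of the sequence only, and no binding was measured.

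**Figure D1:**
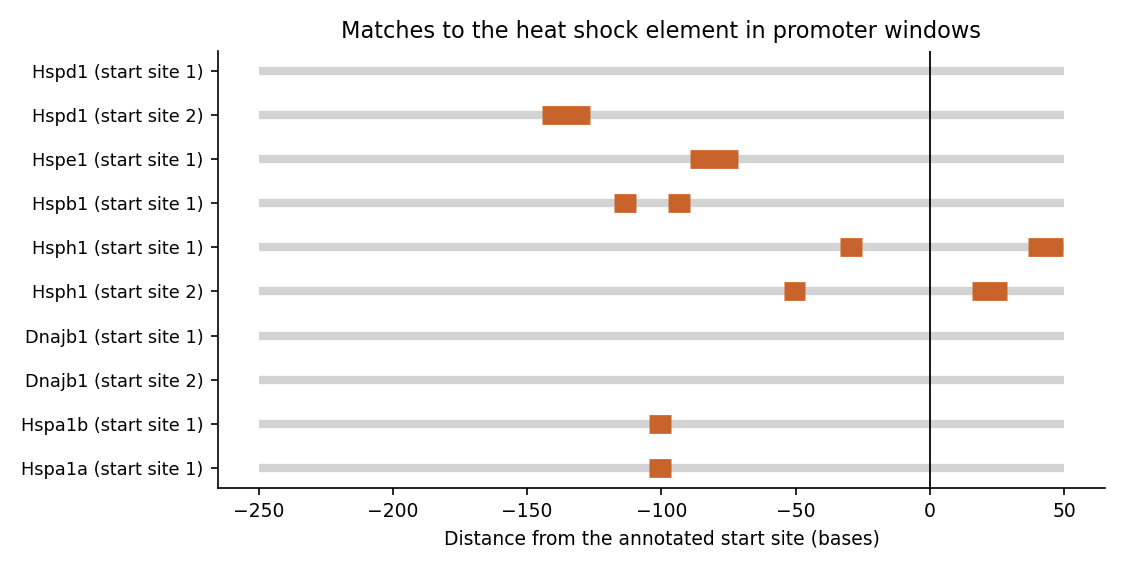
Matches to at least 2 heat shock element units (orange) in the 10 RefSeq promoter windows (grey), drawn by distance in bases from the annotated start (vertical line). The 18-base run of Hspe1 lies 89 to 72 bases before its start, and both Dnajb1 windows are empty.

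At baseline the 10 genes covered a very wide range of transcript levels. Levels are compared between genes as normalized CPM per kilobase of annotated exon, where normalized CPM is CPM after the libraries were scaled by the trimmed mean of M values (TMM). In Ctrl, Hsp90ab1 led with 2155 ± 11.3 CPM per kb (SD, n = 3), followed by Hspa8 with 361 ± 82.3 CPM per kb. Hspd1 (165 ± 27.6 CPM per kb) and Hsp90aa1 (150 ± 27.2 CPM per kb) came next, and their ranges over the Ctrl libraries overlapped. Below them were Hspe1 at 88.8 ± 16.0, Dnajb1 at 48.3 ± 10.1 and Hsph1 at 13.2 ± 2.13 CPM per kb. Hspa1b stood far lower at 1.29 ± 0.174 CPM per kb, and Hspa1a and Hspb1 were at or below the floor. Apart from Hspd1 and Hsp90aa1, and the last pair, neighbours in this order had ranges that did not overlap. The order depends on the length used. Hspe1 has 1474 bases of annotated exon, but its longest protein-coding transcript has 774 bases. For Dnajb1 these lengths are 3204 and 2996 bases. Levels per transcript length are not given for the other genes.

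After pore passage the order by exon length changed in the middle. Hsp90ab1 (2669 ± 248 CPM per kb, SD, n = 2) and Hspa8 (288 ± 8.67 CPM per kb) still led, and Hsp90aa1 followed at 138 ± 10.5 CPM per kb. Then came Hspd1 at 92.6 ± 1.82 CPM per kb, Dnajb1 at 76.9 ± 7.24 CPM per kb and Hspe1 at 51.1 ± 1.62 CPM per kb. By summed exon length Dnajb1 thus lay above Hspe1 in Confine and below it in Ctrl. This swap rests on the length used and does not hold by transcript length. Mean normalized CPM was 131 in Ctrl and 75.4 in Confine for Hspe1, and 155 and 246 for Dnajb1. Divided by their longest protein-coding transcripts, of 774 and 2996 bases, these means put Hspe1 above Dnajb1 in both groups. Hsph1 (6.23 ± 1.09 CPM per kb) and Hspa1b (1.01 ± 0.253 CPM per kb) kept their places. Together the 10 genes took between 0.983 and 1.02% of each Ctrl library, 0.906% of the repeated Confine library and 1.00% of Confine replicate 3. Hsp90ab1 alone made up 65.6 to 70.8% of these counts in Ctrl and 75.1 to 78.7% in Confine, and ranked between place 5 and place 7 of all genes by raw count in every library.

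**Figure D2:**
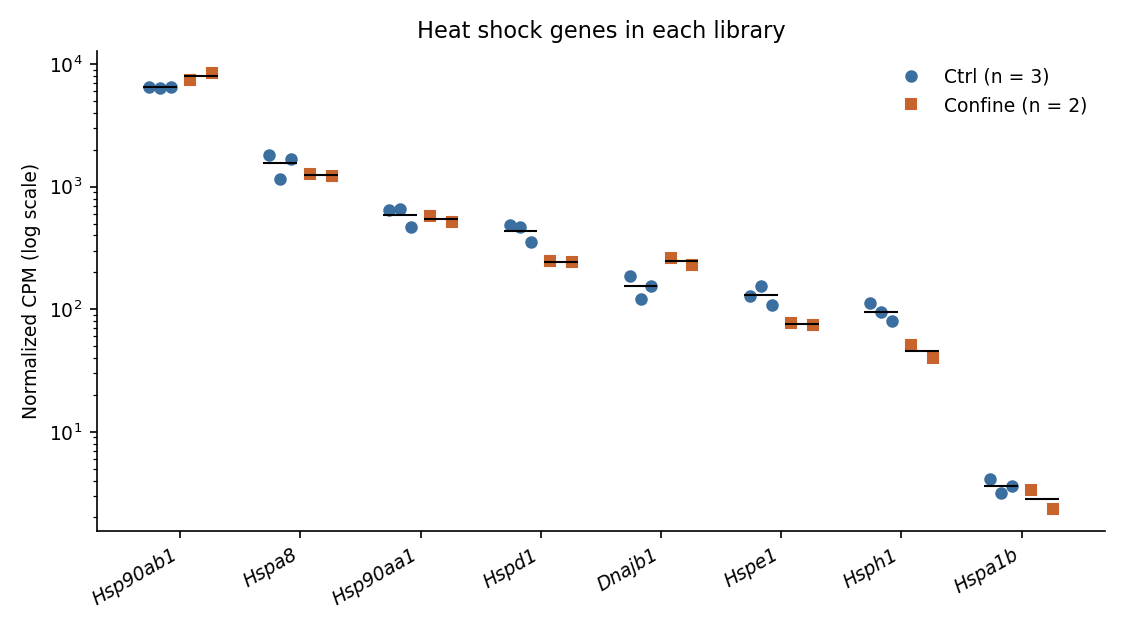
Normalized CPM (log axis, not divided by length) of the 8 tested heat shock genes in each Ctrl library (blue circles, n = 3) and Confine library (orange squares, n = 2), with bars at the group means. Hsph1, Hspd1 and Hspe1 lie lower in both Confine libraries than in every Ctrl library, and Dnajb1 and Hsp90ab1 lie higher.

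Of the 10 genes, 8 had enough counts to be tested and 4 of these passed the quasi-likelihood test of edgeR at 0.05 after Benjamini-Hochberg adjustment over all tested genes: Hsph1, Hspd1 and Hspe1 fell and Dnajb1 rose in Confine. Across all tested genes 23.0% passed, 12.8% as higher and 10.2% as lower in Confine. The other 4 tested genes (Hspa1b, Hspa8, Hsp90aa1 and Hsp90ab1) did not pass, and the remaining Hspa1a and Hspb1 had too few counts. The median log2 fold change of the 8 was −0.34, with a range from −1.08 to 0.67, beside a median of −0.0021 over all tested genes. None of the 8 differed by more than 1.5 on the log2 scale, a size that 8.00% of all tested genes passed together with the adjusted p. Groups did not overlap for 5 of the 8 (the 4 that passed and Hsp90ab1), beside 49.5% of all tested genes. With libraries scaled by total count alone, which moved the median of all genes to −0.21, 3 of the 8 were lower and 0 higher by edgeR, and of all genes 1444 were higher and 2805 lower in place of 2035 and 1619.

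**Figure D3:**
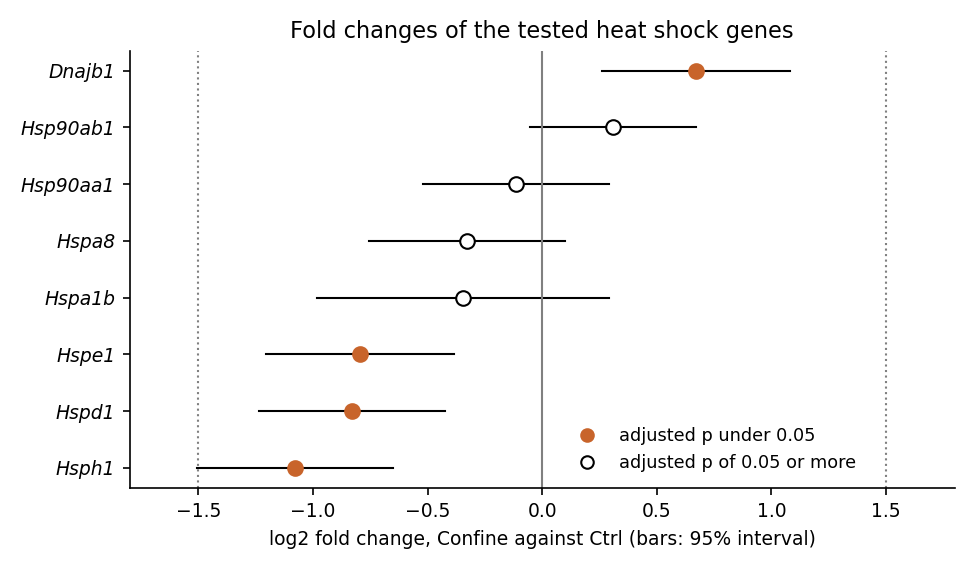
Log2 fold change of Confine against Ctrl for the 8 tested heat shock genes, with 95% intervals (bars) and filled points where the edgeR adjusted p was under 0.05. Values run from −1.08 for Hsph1 to 0.67 for Dnajb1, and no point passes the dotted lines at 1.5.

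The stress-inducible HSP70 genes stayed at low counts in both groups (gene positions here and below are those of GRCm38). Hspa1b (ENSMUSG00000090877, chr17:34956436-34959238, minus strand) had 119, 83 and 85 counts in Ctrl, 99 in the repeated Confine library and 59 in Confine replicate 3, or 4.11, 3.14 and 3.61 CPM against 3.34 and 2.34 CPM. Confine replicate 3 was the lowest library and the repeated Confine library lay inside the Ctrl range, so the groups overlapped. Its log2 fold change was −0.35 ± 0.30 (SE), with a 95% interval of −0.98 to 0.29 and an adjusted p of 0.461 by edgeR. Hspa1a (ENSMUSG00000091971, chr17:34969190-34972156, minus strand), which encodes an almost identical protein, had 0, 1 and 1 counts in Ctrl and 0 and 2 in Confine. These counts are below the floor of 3 counts per library (0.101 to 0.128 CPM), so no fold is given. Of all 100-base windows of the Hspa1b transcript, 49.9% also occurred in Hspa1a, and reads that fit both may have been dropped or split. With both genes summed, the log2 fold change was −0.34 (adjusted p = 0.469 by edgeR).

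Hspa8 encodes the constitutive HSP70, HSC70, and had by far the most counts per kb of the 3 HSP70 genes. Hspa8 (ENSMUSG00000015656, chr9:40800984-40810087, plus strand) had 52873, 30486 and 39429 counts in Ctrl and 37400 and 30495 in Confine, which gave 1827, 1152 and 1677 CPM against 1264 and 1211 CPM. Ctrl replicate 2 lay below both Confine libraries and the other 2 Ctrl libraries lay above them, so the groups overlapped. The log2 fold change was −0.33 ± 0.20 (SE; 95% interval −0.75 to 0.10; adjusted p = 0.276 by edgeR). That outcome rested on Ctrl replicate 2: without it the log2 fold change was −0.51 and the edgeR adjusted p 0.0404. Of the 100-base windows of the Hspa8 transcript, 63.4% also occurred in transcripts of 9 other genes, 58.5% in the pseudogene Gm15459, so its absolute count depends on how reads with several hits were treated.

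Hsph1 and Dnajb1, both partners of HSP70, passed the test in opposite directions. Hsph1 encodes HSP105, a member of the HSP110 family that exchanges the nucleotide of HSP70 and helps to dissolve aggregates. Hsph1 (ENSMUSG00000029657, chr5:149614287-149636376, minus strand) had 3226, 2509 and 1893 counts in Ctrl and 1507 and 999 in Confine, or 111, 94.8 and 80.5 CPM against 50.9 and 39.7 CPM. Each Confine library was below every Ctrl library. Hsph1 fell by 1.08 ± 0.20 on the log2 scale (SE; 95% interval −1.5 to −0.65; edgeR adjusted p = 6.57e-04), to 0.474 times the Ctrl level. It passed in all 16 alternative settings tried, with log2 fold changes between −1.29 and −0.91. Some of these settings changed the counts of other heat shock genes only, so they could hardly alter the Hsph1 call.

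Dnajb1 encodes HSP40, the J-domain protein that brings clients to HSP70 and sets off its ATP hydrolysis. Dnajb1 (ENSMUSG00000005483, chr8:83608193-83612653, plus strand) had 5418, 3235 and 3638 counts in Ctrl and 7777 and 5791 in Confine, or 187, 122 and 155 CPM against 263 and 230 CPM. The groups did not overlap, with Confine above Ctrl. Dnajb1 rose by 0.67 ± 0.20 on the log2 scale (SE; 95% interval 0.26 to 1.08; edgeR adjusted p = 0.0177), to 1.59 times the Ctrl level. This call was lost with either Confine library left out (log2 fold change 0.57 without the repeated library and 0.76 without replicate 3). Such fits leave 1 library in the Confine group. A call lost that way, here and below, can come from lost power as well as from a changed fold change. The Dnajb1 call was also lost with scaling by total count alone (0.47, edgeR adjusted p = 0.0769). The transcripts of Hsph1 and Dnajb1 shared no 100-base window with another gene.

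The HSP90 genes did not pass the test. Hsp90aa1 encodes the more stress-inducible HSP90 alpha and Hsp90ab1 the more constitutive HSP90 beta. Hsp90aa1 (ENSMUSG00000021270, chr12:110690605-110702728, minus strand) had 18728, 17339 and 10959 counts in Ctrl and 16972 and 12977 in Confine, or 647, 655 and 466 CPM against 573 and 515 CPM. Both Confine libraries lay inside the Ctrl range. Its log2 fold change was −0.11 ± 0.19 (SE; 95% interval −0.52 to 0.29; edgeR adjusted p = 0.725). Of its 100-base windows 47.5% also occurred in other genes, 39.6% in Gm12346.

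Hsp90ab1 (ENSMUSG00000023944, chr17:45567775-45573271, minus strand) was the most abundant of the 10 transcripts, and none of its 100-base windows was shared with another gene. It had 186951, 170224 and 152857 counts in Ctrl and 221370 and 214879 in Confine, or 6459, 6433 and 6501 CPM against 7479 and 8532 CPM. The Ctrl libraries lay close together and both Confine libraries were above them, with Confine replicate 3 the highest. The log2 fold change was 0.31 ± 0.17 (SE; 95% interval −0.054 to 0.67; edgeR adjusted p = 0.221), so the difference did not pass although the groups did not overlap.

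Hspb1, which encodes the small heat shock protein HSP25 (HSP27 in human), was barely detected in these cells. Hspb1 (ENSMUSG00000004951, chr5:135887919-135889563, plus strand) had 0 counts in all 3 Ctrl libraries, 1 in the repeated Confine library and 0 in Confine replicate 3. Both groups were under the floor of 3 counts per library, so no fold is given and no difference was detectable at this depth. Of its 100-base windows, 42.7% also occurred in the pseudogene Hsp25-ps1, and its remaining windows occurred in no other annotated transcript.

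The mitochondrial chaperonin genes fell together. Hspd1 encodes HSP60, the barrel of the mitochondrial chaperonin, and Hspe1 encodes HSP10, its lid. Hspd1 (ENSMUSG00000025980, chr1:55077835-55088243, minus strand) had 14049, 12377 and 8256 counts in Ctrl and 7344 and 6078 in Confine, or 485, 468 and 351 CPM against 248 and 241 CPM. Both Confine libraries were below every Ctrl library, and the Ctrl spread came mostly from replicate 3. Hspd1 fell by 0.83 ± 0.19 on the log2 scale (SE; 95% interval −1.23 to −0.42; edgeR adjusted p = 0.00379), to 0.563 times the Ctrl level. It passed in all 16 alternative settings, between −1.04 and −0.73, with the highest adjusted p, 0.0486, without Confine replicate 3.

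Hspe1 (ENSMUSG00000073676, chr1:55088132-55091307, plus strand) had 3708, 4122 and 2561 counts in Ctrl and 2281 and 1856 in Confine, or 128, 156 and 109 CPM against 77.1 and 73.7 CPM. Again both Confine libraries were below every Ctrl library. Hspe1 fell by 0.80 ± 0.20 on the log2 scale (SE; 95% interval −1.21 to −0.39; edgeR adjusted p = 0.00563), to 0.576 times the Ctrl level. This call was lost with either Confine library left out, at an adjusted p of 0.0587 without the repeated library (log2 fold change −0.83) and 0.0840 without replicate 3 (−0.77). Of the 100-base windows, 26.9% for Hspd1 and 22.4% for Hspe1 also occurred in other genes. For Hspd1 25.8% occurred in the pseudogene Hspd1-ps3, and for Hspe1 20.4% occurred in AC117239.2. The 112 bases where both records overlap belong to opposite strands, and whether the counting used strand is not given in the sources used here.

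Ratios between 2 of these genes within a library do not depend on how libraries are scaled. With 3 against 2 libraries the two-sided exact permutation test cannot go below p = 0.1, and p-values were adjusted over the 5 chosen ratios computed here. A further chosen ratio, Hspb1 to Hspa8, was not computed because Hspb1 had a single read in all libraries together. The ratio of Dnajb1 to Hspa8 counts was 0.102, 0.106 and 0.0923 in Ctrl and 0.208 and 0.190 in Confine. Both Confine libraries were above every Ctrl library, by 1.98 times in the means of the log ratios (log2 difference 0.99, exact permutation p = 0.1, adjusted p = 0.5). The ratio of Hsph1 to Hspa8 was 0.0610, 0.0823 and 0.0480 in Ctrl and 0.0403 and 0.0328 in Confine, again without overlap but in the other direction (log2 difference −0.78, exact permutation p = 0.2, adjusted p = 0.5). These p-values stand at or near the smallest that the design allows.

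The chaperonin partners kept a like proportion. There were 3.79, 3.00 and 3.22 Hspd1 counts per Hspe1 count in Ctrl and 3.22 and 3.27 in Confine, and both Confine values lay inside the Ctrl range (log2 difference −0.033, exact permutation p = 0.9). The ratio of Hsp90aa1 to Hsp90ab1 was 0.1002, 0.102 and 0.0717 in Ctrl and 0.0767 and 0.0604 in Confine, where Ctrl replicate 3 lay among the Confine values (log2 difference −0.41, exact permutation p = 0.3). Inducible Hspa1a and Hspa1b together had 0.00225, 0.00276 and 0.00218 counts per Hspa8 count in Ctrl and 0.00265 and 0.00200 in Confine. Those values overlapped as well (log2 difference −0.050, exact permutation p = 0.9), and the sign of this last difference and of Hspd1 to Hspe1 changed when single libraries were left out.

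**Figure D4:**
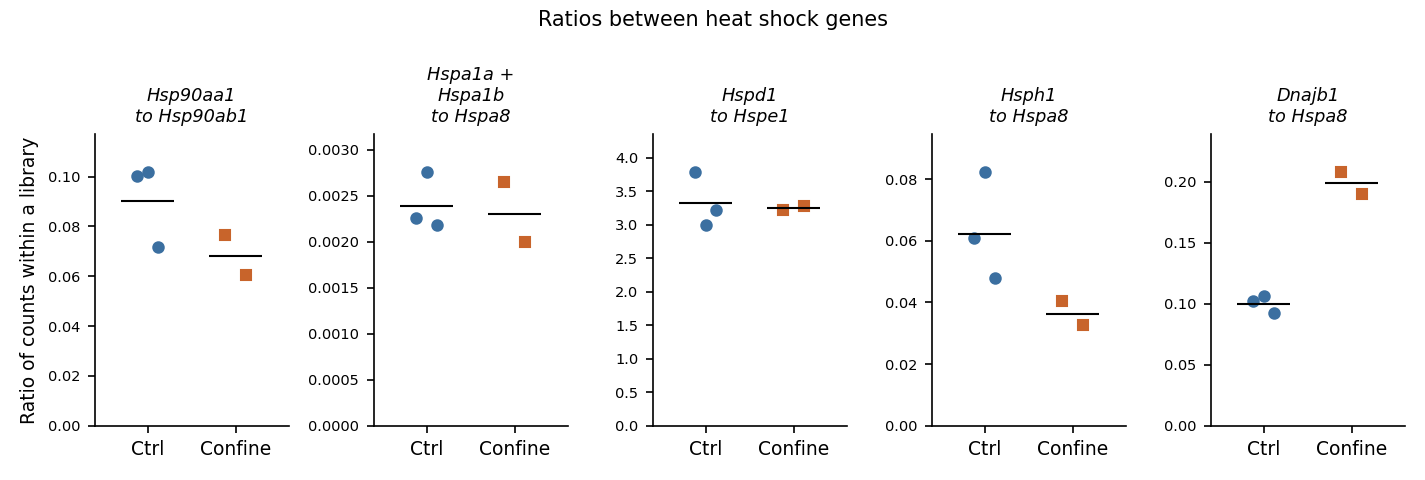
Ratio of the counts of 2 genes within each library, for Ctrl (blue circles, n = 3) and Confine (orange squares, n = 2). Each ratio has its own linear axis from 0, and bars mark the geometric mean of each group. Dnajb1 to Hspa8 runs from 0.0923 to 0.106 in Ctrl and from 0.190 to 0.208 in Confine, while Hspd1 to Hspe1 overlaps between the groups.

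The wider chaperone network was described with 9 lists of other genes, 119 in all, of which 114 were tested. Of these 10 rose and 16 fell in Confine by the edgeR test, 22.8% of those tested beside 23.0% of all tested genes, and their median log2 fold change was −0.13. By list, the share of tested genes that passed ran from 14.3% for CCT and prefoldin to 42.9% for other HSP70 and HSP110 chaperones, where 7 were tested. Only 3 of the 114 also passed 1.5 on the log2 scale, namely Hsf5, Atf5 and Hspb7. Calls in these lists often did not hold in every alternative setting. Of the 26, 7 passed in all 16 alternative settings (Atf5, Cacybp, Dnajc5, Dnajc9, Hsf5, Hspb7 and Lonp1). For Hspa12b, Hspa14, Stub1, Ahsa1, Chordc1, Cct3, Pfdn5, Hscb, Pmpca and Serpinh1, a further setting not named with them below also ended the call. Leaving out Ctrl replicate 1 ended 9 calls (edgeR adjusted p from 0.0676 to 0.185) and leaving out Ctrl replicate 3 ended 2 (0.0615 and 0.0637). Leaving out either Confine library also ended calls, but leaves 1 library in that group, so power falls. Some fold changes held in those fits and others shrank. Without the repeated Confine library Stub1 was at −1.26 against −1.25 with all libraries, and Serpinh1 at −0.63 against −1.02. With scaling by total count alone, 8 of the list genes were higher and 37 lower.

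**Figure D5:**
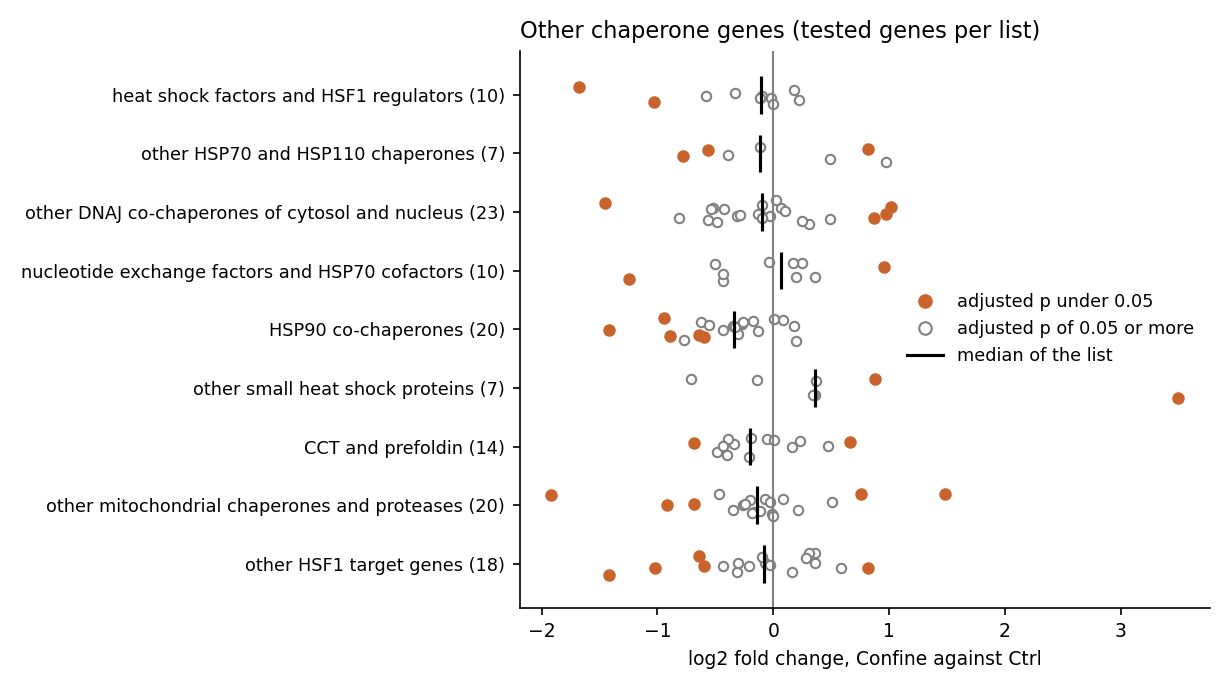
Log2 fold change of Confine against Ctrl for every tested gene of the 9 lists (number tested in brackets, a gene of 2 lists drawn in both), filled where the edgeR adjusted p was under 0.05, with bars at the list medians. Medians run from −0.34 for HSP90 co-chaperones to 0.36 for other small heat shock proteins, with Hspb7 at 3.50.

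Of 11 heat shock factors and HSF1 regulators, 10 were tested, 0 rose and 2 fell (median −0.11). At an unadjusted edgeR p under 0.05 the counts were 0 and 3, and by DESeq2 0 and 3. Hsf1, the master factor of the heat shock response, had 59.8, 37.5 and 52.1 CPM in Ctrl and 36.6 and 30.02 CPM in Confine. Both Confine libraries were below every Ctrl library, though narrowly for Ctrl replicate 2. Its log2 fold change was −0.58 ± 0.21 (SE, edgeR adjusted p = 0.0575), and it passed in 6 of the 16 alternative settings, among them without Ctrl replicate 2 (−0.75, adjusted p = 0.00430). Hsf2, a related factor, had a log2 fold change of −0.33 ± 0.23 (adjusted p = 0.343 by edgeR). Hsf5, a family member known from male germ cells, fell from 6.23 ± 2.05 to 1.94 ± 0.501 CPM (log2 fold change −1.67, edgeR adjusted p = 0.00118). Sirt1, a deacetylase that acts on HSF1, fell from 6.17 ± 0.809 to 3.02 ± 0.172 CPM (log2 fold change −1.03, edgeR adjusted p = 0.00918). It lost the call without the repeated Confine library (log2 fold change −1.09) and without Confine replicate 3 (−0.97).

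Among 7 tested HSP70 and HSP110 genes outside the 10, Hspa4l, an HSP110 relative of Hsph1, rose from 70.7 ± 7.23 to 124 ± 26.8 CPM (log2 fold change 0.82, edgeR adjusted p = 0.00374). Hspa12b (−0.78) and Hspa14 (−0.57), both distant HSP70 relatives, fell. All 3 calls were lost without the repeated Confine library (adjusted p = 0.137, 0.188 and 0.160), and that of Hspa14 also without Confine replicate 3 (0.259), Ctrl replicate 1 (0.185) or Ctrl replicate 3 (0.0615). Of 23 tested J-domain co-chaperones other than Dnajb1, 3 rose and 1 fell (median −0.096). Dnajc9, which also binds histones, fell from 430 ± 10.6 to 157 ± 15.5 CPM (log2 fold change −1.45, edgeR adjusted p = 1.12e-05). Dnajc5, the cysteine string protein of secretory vesicles, rose from 94.4 ± 12.7 to 190 ± 4.62 CPM (log2 fold change 1.01, edgeR adjusted p = 3.84e-04), and Dnajb2 from 24.9 ± 0.596 to 48.8 ± 10.8 CPM (0.97, edgeR adjusted p = 8.25e-04). Dnajc21, a J-domain protein of ribosome assembly, rose by 0.87 on the log2 scale. The calls for Dnajb2 and Dnajc21 were lost without Confine replicate 3 (adjusted p = 0.0634 and 0.0781).

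Of 10 nucleotide exchange factors and other HSP70 cofactors, 1 rose and 1 fell, and by DESeq2 1 rose and 0 fell (1 and 3 at an unadjusted edgeR p under 0.05). Bag2, which inhibits the ubiquitin ligase CHIP, rose from 44.2 ± 11.4 to 85.4 ± 5.16 CPM (log2 fold change 0.95, edgeR adjusted p = 0.00247). This call was lost without Confine replicate 3 (log2 fold change 0.89). Stub1, which encodes CHIP itself, had 121, 33.8 and 64.9 CPM in Ctrl and 31.0 and 30.6 CPM in Confine. Ctrl replicate 1 stood high and Ctrl replicate 2 was close to the Confine libraries. Stub1 fell by 1.25 on the log2 scale (edgeR adjusted p = 0.0122), but by 0.68 without Ctrl replicate 1 (adjusted p = 0.0676). The call was also lost with DESeq2 (log2 fold change −1.27, adjusted p = 0.161). It was lost as well without the repeated Confine library (−1.26) and without Confine replicate 3 (−1.24).

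The 20 HSP90 co-chaperones had the lowest median of the 9 lists, −0.34, which was also the median of the 8 tested heat shock genes. Of the 20, 0 rose and 5 fell. The 25.0% that fell stands beside 10.2% of all tested genes that were lower and 12.8% that were higher in Confine. By unadjusted edgeR p under 0.05 the counts were 0 and 8, and by DESeq2 0 and 5. Cacybp, a subunit of a ubiquitin ligase that binds HSP90, had 233, 156 and 151 CPM in Ctrl and 78.4 and 55.9 CPM in Confine. No Confine library came near the lowest Ctrl library, and Cacybp fell by 1.42 ± 0.23 on the log2 scale (SE, edgeR adjusted p = 1.43e-04). Ppp5c, a phosphatase of HSP90 clients, fell from 89.1 ± 15.4 to 46.3 ± 4.43 CPM (log2 fold change −0.94, adjusted p = 0.0604 without Confine replicate 3). Fkbp5, an immunophilin of steroid receptor complexes, fell from 15.9 ± 3.63 to 8.58 ± 1.91 CPM (−0.89, adjusted p = 0.186 without the repeated Confine library). Ahsa1, the activator of the HSP90 ATPase (−0.64), and Chordc1, an HSP90 partner (−0.59), also fell. Their calls were lost without Ctrl replicate 1 (adjusted p = 0.114 and 0.0688), without the repeated Confine library (0.0664 and 0.0578) and without Confine replicate 3 (0.225 and 0.343).

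Small heat shock proteins other than Hspb1 included the list gene with the widest change. Hspb7, best known from heart and muscle, had 59, 27 and 50 counts in Ctrl and 334 and 701 in Confine, or 2.04, 1.02 and 2.13 CPM against 11.3 and 27.8 CPM. Both Confine libraries were far above every Ctrl library, and Confine replicate 3 was the higher of them. Hspb7 rose by 3.50 ± 0.35 on the log2 scale (SE, edgeR adjusted p = 7.75e-07), to 11.3 times the Ctrl level, and by 2.70 without Confine replicate 3 and 4.01 without the repeated library. Of the 4 skeletal muscle markers, Des had 4.18, 3.59 and 4.34 CPM in Ctrl and 9.05 and 12.8 CPM in Confine, while Myod1, Myog and Myh3 had at most 1 count in Ctrl and 0 in both Confine libraries. Hspb11, a subunit of intraflagellar transport, rose by 0.87 on the log2 scale (edgeR adjusted p = 0.00417), a call lost without Confine replicate 3 (adjusted p = 0.160). The other 5 of the 7 tested did not pass, and 0 fell (0 at an unadjusted edgeR p under 0.05 and 0 by DESeq2).

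Outside the cytosolic HSP70 and HSP90 systems, 14 subunits of the chaperonin CCT and its partner prefoldin were tested, of which 1 rose and 1 fell (median −0.20). Cct3 fell from 318 ± 43.0 to 198 ± 23.9 CPM (log2 fold change −0.69, edgeR adjusted p = 0.0125), and Pfdn5 rose from 139 ± 11.7 to 220 ± 46.4 CPM (0.66, edgeR adjusted p = 0.0141). Both calls were lost without Ctrl replicate 1 (adjusted p = 0.0712 and 0.0705) and without Confine replicate 3 (0.165 and 0.291), and that of Pfdn5 also with scaling by total count alone (0.0804).

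Among 20 mitochondrial chaperones, proteases and regulators other than Hspd1 and Hspe1, 2 rose and 3 fell (median −0.14). Atf5, a transcription factor of the mitochondrial unfolded protein response, had 77.5, 60.7 and 46.1 CPM in Ctrl and 19.1 and 13.4 CPM in Confine. The Confine values were well below every Ctrl library, and Atf5 fell by 1.92 ± 0.24 on the log2 scale (SE, edgeR adjusted p = 1.04e-05). Lonp1, the matrix protease that degrades misfolded proteins, had 112, 125 and 91.1 CPM in Ctrl and 262 and 349 CPM in Confine. It moved the other way from the chaperonin pair, and rose by 1.48 ± 0.19 on the log2 scale (SE, edgeR adjusted p = 1.62e-05). Htra2, a protease of the intermembrane space, fell by 0.92 on the log2 scale (edgeR adjusted p = 0.00179), a call lost without the repeated Confine library (adjusted p = 0.0533). Hscb, a co-chaperone of iron-sulfur cluster assembly, rose by 0.76 and Pmpca, a subunit of the presequence peptidase, fell by 0.68, and both calls were lost without Ctrl replicate 1 (adjusted p = 0.104 and 0.161) and without Confine replicate 3 (0.369 and 0.227). That of Pmpca was also lost without the repeated Confine library (0.184), without Ctrl replicate 3 (0.0637) and with limma-voom (0.0553), and that of Hscb with scaling by total count alone (0.0856).

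Of 18 further HSF1 target genes, 1 rose and 4 fell (median −0.083). The list shares genes with those above: Cacybp, Ahsa1 and Chordc1 were among those that fell and Hspa4l was the one that rose. Serpinh1, which encodes the collagen chaperone HSP47 of the endoplasmic reticulum, was the remaining one that fell. It had 1673, 645 and 1231 CPM in Ctrl and 402 and 763 CPM in Confine, and the groups overlapped. Serpinh1 fell by 1.02 ± 0.31 on the log2 scale (SE, edgeR adjusted p = 0.0238), a call lost without the repeated Confine library (−0.63, adjusted p = 0.291) and without Ctrl replicate 1 (−0.69, adjusted p = 0.0856). It was also lost with DESeq2 (−1.04, adjusted p = 0.201), by which 1 gene of the list rose and 3 fell.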

How the data were processed

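The deposited table held raw read counts per gene for 6 columns, made by the authors from poly(A)-selected libraries. The submitters' processing notes name Trim Galore 0.6.10, HISAT2 2.1.0, SAMtools 1.5, featureCounts and the build mm10. The strand setting, the treatment of reads with several hits and the annotation release are not given in the sources used here. Gene identifiers were matched to GENCODE M21 (GRCm38), 54587 of 55335 with and 55154 without their version. Total counts per library were between 22287210 and 32537550, and a floor of 3 counts corresponded to 0.101 to 0.128 CPM. Such floors cover counting error only.

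Counts were analysed with R 4.3.3 and edgeR 4.0.16 (filterByExpr, TMM, glmQLFit and glmQLFTest, no replicate block) over all genes that passed the filter, with Benjamini-Hochberg adjustment over all 15881. The 2 identical Confine columns entered once, as their mean. Normalized CPM is the count divided by library size times TMM factor. Standard errors were taken as the log2 fold change divided by the square root of the F statistic, and 95% intervals from the t distribution with the degrees of freedom of the fit. Genes were called at an adjusted p under 0.05. DESeq2 1.42.0, limma 3.58.1 (voom), other scalings, other filters, replicate blocks and left-out libraries served as alternatives. Further alternatives counted the identical columns as 2 libraries, summed Hspa1a with Hspa1b, or added pseudogene counts to Hspd1, Hspe1 and Hspb1. The sum and the added pseudogene counts left the counts of the list genes unchanged, so they could hardly alter those calls. Per-length levels divide by the summed exon length of each gene, and shared sequence was counted in 100-base windows of annotated transcripts. Promoter windows came from RefSeq (GRCm38.p6).

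All 10 genes were named. Of each list, genes past an adjusted p of 0.05 and 1.5 on the log2 scale, the 3 called genes with the widest change and the heat shock factors could be named, and other called list genes (Dnajc21, Ahsa1, Chordc1, Hscb and Pmpca) were added after their values were seen. The genes and lists were chosen with earlier results of these data known. One leukocyte marker is not reported here.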

Additional observations from a re-analysis of the deposited data

How the results depend on the processing

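Hsph1 and Hspd1 were called as lower under all 16 alternatives, and the directions of the 8 tested heat shock genes held in each. The number of these genes called as higher was 0 with library size alone, and 0 to 1 when 1 library was left out, 2 to 4 being lower. With the cutoff of 1.5 on the log2 scale added, 0 were higher and 0 lower (all genes: 777 and 494). Of the list genes, 37 were lower with library size alone, 30 with the identical columns counted as 2 libraries, and 6 to 24 with 1 library left out, where 4 to 13 were higher. Of all genes, 2805 were lower with library size alone, 2456 with the identical columns as 2 libraries, and 850 to 2015 with 1 library left out, where 1196 to 2411 were higher. Hsbp1, with a log2 fold change of 0.18, was at −0.026 with library size alone. The ratio of Hspa1a plus Hspa1b to Hspa8 changed sign with the identical columns as 2 libraries (0.017), without Ctrl replicate 2 (0.055) and without Confine replicate 3 (0.15), over a range of −0.25 to 0.15, and that of Hspd1 to Hspe1 without Ctrl replicate 1 (0.062, range −0.11 to 0.062). The cause was not tested. Leaving out a Confine library leaves 1 in that group, assumed to vary like Ctrl.

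Replicate numbers were shared by label only. Since the repeated Confine library carries both number 1 and number 2, the replicate block was fitted both ways, with 1 residual degree of freedom. As number 2 the prior degrees of freedom were infinite, so no variance particular to a gene entered. As number 1 they were 16.5. Counts from these fits are therefore not directly comparable. Deviations of same-numbered libraries correlated at −0.053 (as number 2) and 0.052 (as number 1) across 15881 genes. With the block, 8 (as number 2) and 28 (as number 1) list genes were lower. The block as number 1 brought Hspa8 past the threshold (−0.50, adjusted p = 0.0313 by edgeR) and changed no other call among the 8 genes.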
